A study of Homo sapiens with 4 samples.

Results

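DNA replication copies the genome once per cell cycle. The origin recognition complex (ORC) marks origins, and CDC6 and CDT1 load the MCM2 to MCM7 ring there, a step named licensing that geminin (GMNN) blocks outside G1. CDC45 and GINS then turn each ring into the active CMG helicase, polymerases alpha, delta and epsilon extend the strands, and the clamp PCNA holds them in place. The genes of this machinery are textbook targets of E2F factors, and the dividing cells of lung adenocarcinoma depend on them.

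The 50 genes described here were chosen by name as members of this machinery, and all 50 had a row among the 15562 genes of the RNA-seq tables. They fall into 8 role groups: origin licensing, the MCM helicase, helicase activation, polymerases, the clamp with lagging strand enzymes, single-strand binding, nucleotide supply, and chromatin at the fork. Each member had at least 100 counts in both libraries (192 to 8558), so the filter on low counts, which asked for a CPM (count scaled to library size) of 1 in either library, removed none, and 12725 genes passed it in all.

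The cells were H1975, an established line from a human lung adenocarcinoma, labelled wild type. Cells were cultured for 24 h in normoxia, or for 24 h in a hypoxic incubator with 1% O2, 5% CO2 and 94% N2, and the labels give no oxygen level for the normoxia group. Each condition was measured by 1 RNA-seq library, of 17643836 counts in normoxia and 18943320 in hypoxia, and by 1 miRNA-seq library. With 1 library per condition there is no spread between cultures and no test of the condition, so each ratio carries a 95% counting interval, which covers counting error only and describes these 2 RNA-seq libraries. In bulk RNA, fewer cells in S phase and less of a transcript per cell cannot be told apart.

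The labelled identity and treatment were read from marker genes. The epithelial keratin KRT8 had an FPKM (count scaled to gene length and library total) of 1821 in normoxia and NKX2-1, a lung lineage factor, of 32.3. All 9 epithelial markers had a row, but 2 markers of mature alveolar cells were low, SFTPB at 0.211 and NAPSA at 3.34 in normoxia. Of the 8 that passed the filter, 4 were below 0, and the keratin KRT7 was lower in hypoxia at a log2 ratio of -0.42 (-0.45 to -0.40). The 3 endothelial markers with a row summed to an FPKM of 1.19 in normoxia and 1.03 in hypoxia, with VWF at 0 in normoxia. The 2 leukocyte markers with a row summed to 0.731 and 0.381, with PTPRC at 0 in normoxia. The 4 fibroblast markers summed to 19.6 and 19.9, of which COL1A1 made up 15.1 in normoxia. Of 16 targets of hypoxia-inducible factors (HIF), 14 (87.5%) were at least 1.2-fold higher in hypoxia with an interval that excluded no change. Of all genes that passed the filter, 4.86% were. Among the 14, VEGFA was at a log2 ratio of 0.65 (0.58 to 0.73) and CA9 at 0.51 (0.38 to 0.65). These targets were listed with earlier results of these data known.

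Replication genes as a group were slightly lower in hypoxia. Of the 50, 39 had a log2 ratio below 0 (78%), against 49.3% of all genes that passed the filter. Their median log2 ratio was -0.08, beside 0.0032 for all genes, and their middle values ran from a lower quartile of -0.16 to an upper quartile of -0.0083. The summed counts of the 50 genes were 73220 in normoxia and 74077 in hypoxia, a scaled ratio of 0.949 (log2 -0.08, -0.09 to -0.06). They took 0.415% of all counts in normoxia (0.412 to 0.418, exact Clopper-Pearson) and 0.391% in hypoxia (0.388 to 0.394). The shift was small beside the spread of single genes: among 10739 well-counted genes, those at 100 counts or above in each library, the central 95% of log2 ratios ran from -0.33 to 0.33.

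Counting intervals showed the same lean. For 18 of 50 members (36%) the interval lay wholly below 0, against 14.0% of all genes that passed the filter and 15.2% of the well-counted genes. It lay wholly above 0 for 1 member, RFC1 (2%), against 15.0% of all genes. By the size rule, a ratio of at least 1.2-fold with an interval that excludes no change, 3 members were called lower (CDC45, MCM10 and CDT1), or 6%, against 4.60% of all genes, a share near the background. No member was called higher, with 0 of 50 against 4.86% of all genes. At 2-fold, 0 members were called in either direction, against 0.440% of all genes lower and 0.472% higher. The lean thus showed in the side of 0 on which members lay and not in the share past 1.2-fold. The median did not follow depth, at -0.09 over the 25 members with fewer counts and -0.08 over the 25 with more. In the same order, 19 and 20 genes were below 0. The number of intervals wholly below 0 did differ with depth, at 6 among those with fewer counts and 12 among those with more.

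Some members have neighbours or copies with which reads could be shared, which was not measured. The spans of 11 overlap another coding gene, among them ORC1 with PRPF38A, ORC3 with AKIRIN2, GINS2 with GSE1, RFC5 with WSB2 and RPA3 with UMAD1, and 11 have a named pseudogene in RefSeq. It is not given whether counting used strand, so the counts of these genes are uncertain. Over the 39 members without an overlap the median was -0.08 and 30 were below 0.

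**Figure D1:**
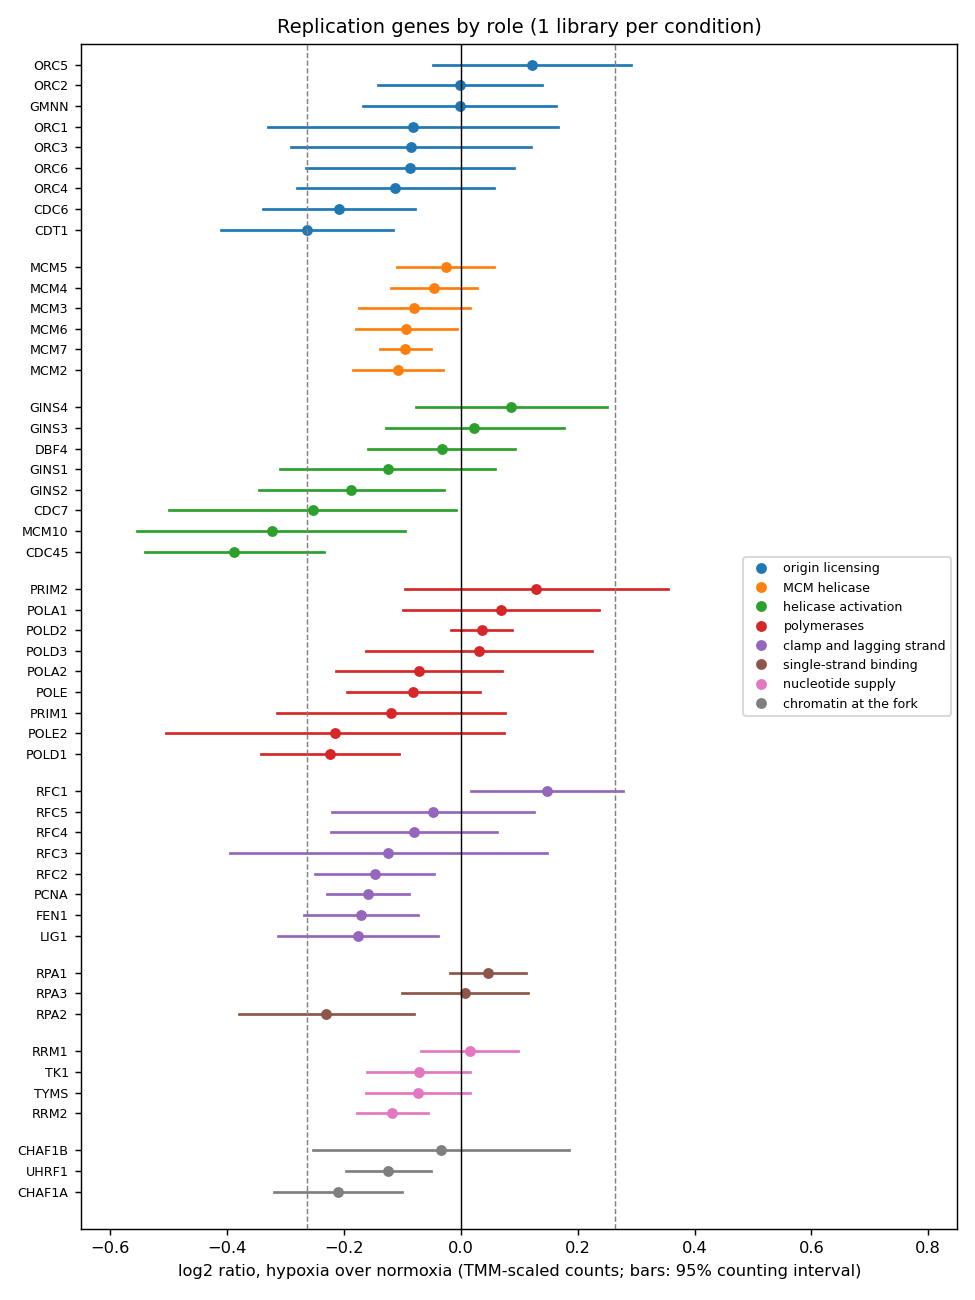
Log2 ratio of hypoxia over normoxia for each of the 50 replication genes, grouped by role, with bars for the 95% counting interval, a solid line at no change and dashed lines at 1.2-fold either way. Most points lie left of the solid line, CDC45 (-0.39) lies farthest left and RFC1 (0.15) farthest right.

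Promoter sequences were searched for short words that the members share. RefSeq (GRCh38.p14) gave 58 promoter windows, each from 250 bases before a transcription start to 50 after it, for 44 of the 50 genes. MCM4, MCM5, GINS4, POLD3, RPA2 and RPA3 were not matched. Windows were searched on both strands for the E2F word TTCCCGC and its variants with other middle bases, namely TTCGCGC as well as TTGCCGC as well as TTGGCGC, which can overlap one another, for the CCAAT box, for the GC box GGGCGG and for the hypoxia response core ACGTG or GCGTG. An E2F word stood in 62.1% of the replication gene windows (36 of 58), in 19.1% of the 15182 windows of genes that passed the filter and in 13.0% of all 35116 windows. A CCAAT box stood in 55.2%, 34.5% and 34.6% in the same order. The GC box (74.1%, 66.1% and 45.0%) and the hypoxia core (70.7%, 60.5% and 48.4%) differed less between members and genes that passed. The median GC content was 65.7% in the members' windows and 64.7% in those of genes that passed. Related lists held these words too. E2F words stood in 35.7% of the windows of other fork and origin factors, 33.3% of those of regulators of S phase entry and 31.8% of those of mitotic genes. The CCAAT box stood in 60.7%, 33.3% and 81.8% in the same order. It was thus no more frequent before replication genes than in the first and last of these lists. HIF targets, a list outside the cell cycle, held an E2F word in 33.3% of their 18 windows and a CCAAT box in 50%.

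**Figure D2:**
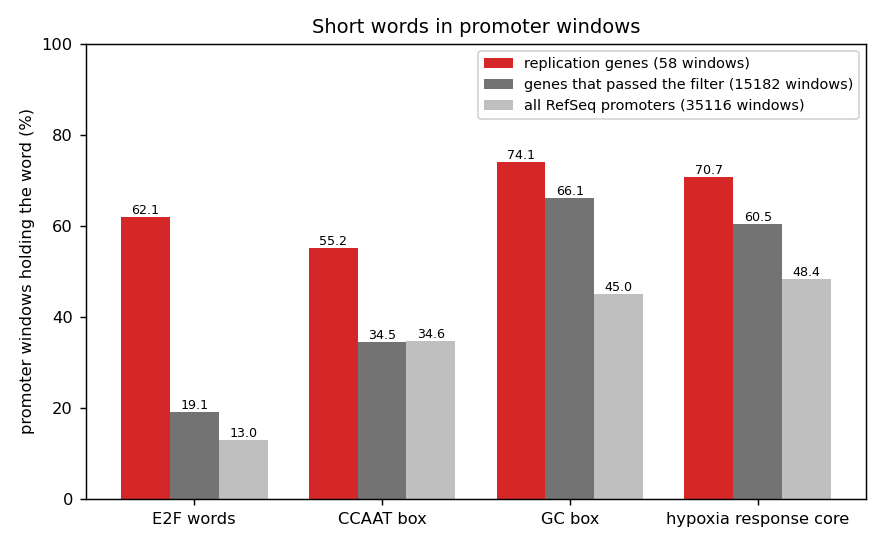
Share of promoter windows, in percent, that hold each short word on either strand, for replication genes (58 windows), genes that passed the filter (15182) and all RefSeq promoters (35116). The bars differ most for the E2F words, at 62.1%, 19.1% and 13.0%.

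The 250 bases before the start are printed here, 5′ to 3′ on the strand of the gene, for CDT1 (chr16:88803539-88803788, plus strand), MCM6 (chr2:135876444-135876693, minus strand) and MCM7 (chr7:100101398-100101647, minus strand), which stand for 2 E2F words close together, overlapping pairs and the host of a miRNA cluster. Capitals mark the E2F words, read on either strand. CDC45 (chr22:19479670-19479919, plus strand), the member with the lowest ratio, is shown for contrast with its CCAAT boxes in capitals.
CDT1: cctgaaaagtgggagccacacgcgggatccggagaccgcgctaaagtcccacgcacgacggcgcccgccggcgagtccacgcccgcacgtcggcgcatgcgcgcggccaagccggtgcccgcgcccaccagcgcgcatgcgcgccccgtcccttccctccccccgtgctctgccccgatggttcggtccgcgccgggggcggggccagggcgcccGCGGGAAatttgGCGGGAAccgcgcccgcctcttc
MCM6: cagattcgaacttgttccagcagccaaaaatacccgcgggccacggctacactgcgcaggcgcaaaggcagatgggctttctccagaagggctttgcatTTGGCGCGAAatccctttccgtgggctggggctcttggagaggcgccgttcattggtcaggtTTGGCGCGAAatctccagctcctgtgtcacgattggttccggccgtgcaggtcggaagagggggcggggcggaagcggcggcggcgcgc
MCM7: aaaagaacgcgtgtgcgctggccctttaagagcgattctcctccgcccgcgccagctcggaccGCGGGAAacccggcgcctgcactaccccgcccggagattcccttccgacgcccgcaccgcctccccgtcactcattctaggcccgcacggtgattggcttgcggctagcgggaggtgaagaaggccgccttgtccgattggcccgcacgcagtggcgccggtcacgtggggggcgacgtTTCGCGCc
CDC45: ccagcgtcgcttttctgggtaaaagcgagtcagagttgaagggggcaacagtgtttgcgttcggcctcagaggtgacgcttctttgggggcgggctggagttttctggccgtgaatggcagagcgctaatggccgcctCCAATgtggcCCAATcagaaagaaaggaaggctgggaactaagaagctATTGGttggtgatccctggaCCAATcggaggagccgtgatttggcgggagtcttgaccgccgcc

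In CDT1 the words begin 35 and 23 bases before the start. In MCM6 each run of capitals holds 2 overlapping words, 1 per strand, and the runs begin 151 and 89 bases before the start. CDC45 held none of the 4 E2F words in any of its 3 windows, but its printed window holds TTGGCGG, which differs from a searched word in its last base. With TTGGCGG added to the search, a choice made after the sequences were seen, the share of windows with a word was 69.0% for members and 23.0% for genes that passed. A match is a description of letters and says nothing of binding in these cells.

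E2F words were spread over all 8 role groups. They stood before all 4 matched MCM genes, all 4 nucleotide supply genes, all 3 chromatin genes and 7 of 8 clamp and lagging strand genes, FEN1 being without. Origin licensing genes had them in 5 of 9, with ORC2, ORC4, ORC5 and ORC6 without, and helicase activation genes in 4 of 7, with CDC45, MCM10 and DBF4 without. The ratio was about the same with and without a word: the median log2 ratio was -0.09 over the 33 members with a word and -0.09 over the 11 without. Of the 3 members called lower, CDT1 had a word, and CDC45 and MCM10 had none of the 4, while with TTGGCGG added all 3 had a word.

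In origin licensing, the 2 loading factors were lower, and the intervals of the 6 genes of the origin complex held 0. CDT1, which brings the MCM ring to the origin, had 799 counts in normoxia and 710 in hypoxia, a log2 ratio of -0.26 (-0.41 to -0.12), and FPKM of 17.0 and 14.1. Its difference sits at the size threshold, and it was not called with DESeq2 size factors, with the length trend removed or on FPKM with a pseudocount of 1. CDC6, the ATPase that loads the ring together with CDT1, had 997 and 920 counts, a log2 ratio of -0.21 (-0.34 to -0.08), and FPKM of 18.9 and 16.2. The inhibitor GMNN had 588 and 626 counts, a log2 ratio of -0.0024 (-0.17 to 0.16).

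The 6 ORC subunits had 3091 counts in normoxia and 3226 in hypoxia, a summed log2 ratio of -0.03 (-0.10 to 0.04), and the intervals of all 6 held 0. They ran from ORC4 at -0.11 (-0.28 to 0.06) to ORC5 at 0.12 (-0.05 to 0.29), which had 532 and 617 counts and FPKM of 7.63 and 8.24. ORC1, ORC3 and ORC6 were at -0.08, -0.09 and -0.09, with ORC2, the member of the complex with the most counts (798 and 850), at -0.0017. The span of ORC4 overlaps ACVR2A and MBD5 in the annotation. No single ORC gene therefore showed a difference detectable at this depth. As a set, 5 of the 6 were below 0, and their median of -0.08 equalled that of all 50 members.

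All 6 genes of the MCM ring were below 0, by small amounts. MCM2 had 2796 counts in normoxia and 2767 in hypoxia, a log2 ratio of -0.11 (-0.18 to -0.03). MCM7 had 8558 and 8545, the most counts of any member, and a log2 ratio of -0.09 (-0.14 to -0.05). MCM6 was at 2191 and 2190 counts (-0.09, -0.18 to -0.01). These 3 had an interval wholly below 0.

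The intervals of the other subunits held 0. MCM3 had 1787 and 1803 counts (-0.08, -0.18 to 0.02). MCM4 had 2921 and 3017 counts (-0.05, -0.12 to 0.03). MCM5 had 2301 and 2410 counts (-0.03, -0.11 to 0.06). The ring as a whole had 20554 and 20732 counts, a log2 ratio of -0.08 (-0.11 to -0.05), and the 6 ratios lay within a range from -0.11 to -0.03, so its subunits were close to one another.

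Levels per length were less even than the ratios. In normoxia MCM7 had an FPKM of 164.9, and MCM2, MCM4, MCM6, MCM5 and MCM3 had 44.98, 40.8, 33.1, 31.8 and 30.2 in that order. In hypoxia MCM7 had 153.4, and the others 41.5, 39.2, 30.8, 31.0 and 28.4 in the same order. The highest level in the ring was 5.46 times the lowest in normoxia and 5.40 times in hypoxia. The span of MCM7 overlaps AP4M1 in the annotation.

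Helicase activation held the members with the lowest ratios. CDC45, which joins the MCM ring and GINS in the active helicase, had 778 counts in normoxia and 634 in hypoxia, a log2 ratio of -0.39 (-0.54 to -0.23), 1.31-fold lower. Its FPKM was 18.3 and 13.9. Of the well-counted genes, 1.47% had a lower ratio. MCM10, which takes part in activating the loaded ring, had 344 and 293 counts, a log2 ratio of -0.32 (-0.55 to -0.10) and FPKM of 4.26 and 3.38. For MCM10 the share of such genes with a lower ratio was 2.55%. Both lay beyond 1.2-fold under every scaling run.

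The kinase that triggers firing and the GINS subunits were less uniform. CDC7, the kinase that phosphorylates the ring, had 293 and 262 counts (-0.25, -0.50 to -0.0087), 1.19-fold lower and so short of the size threshold, while its activator DBF4 had 1021 and 1064, the most counts in this group (-0.03, -0.16 to 0.09), and FPKM of 16.2 and 15.8. Among the GINS subunits, GINS2 was at -0.19 (-0.35 to -0.03) and GINS1 at -0.13 (-0.31 to 0.06). GINS3 was at 0.02 (-0.13 to 0.18) and GINS4 at 0.09 (-0.08 to 0.25), the highest of the group on 575 and 651 counts and FPKM of 8.52 and 8.98. Summed, the 4 GINS genes had a log2 ratio of -0.05 (-0.13 to 0.03).

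The summed counts of the polymerase genes were near no change, at 10829 in normoxia and 11397 in hypoxia, a log2 ratio of -0.02 (-0.06 to 0.02). POLD2 weighs heavily in that sum. The median over the 9 genes was -0.07, with 5 below 0, close to the -0.08 of all 50 members. The exception by interval was POLD1, the catalytic subunit of polymerase delta, which had 1225 and 1119 counts (-0.22, -0.34 to -0.11) and FPKM of 18.0 and 15.4. Its partner subunit POLD2 had 5609 and 6131 counts, the most of the group (0.04, -0.02 to 0.09), and FPKM of 143.9 and 146.5, and POLD3 was at 0.03 (-0.16 to 0.22). POLE, the catalytic subunit of polymerase epsilon, was at -0.08 (-0.20 to 0.03) and POLE2 at -0.22 (-0.51 to 0.07) on 209 and 192 counts, too few for a difference of that size to be seen. With the length trend removed, the interval of POLE lay below 0 (log2 ratio -0.12) and that of POLD2 above 0 (log2 ratio 0.08).

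Polymerase alpha and primase, which lay down the primers, had 2105 and 2226 counts in sum, a log2 ratio of -0.01 (-0.10 to 0.07). PRIM2 was the highest polymerase gene at 0.13 (-0.10 to 0.35) on 307 and 358 counts and FPKM of 2.56 and 2.78, and its span overlaps RAB23. PRIM1, the catalytic primase subunit, was at -0.12 (-0.32 to 0.08), POLA1 at 0.07 (-0.10 to 0.24) and POLA2 at -0.07 (-0.21 to 0.07). Each of these 4 intervals held 0.

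Of the 8 clamp and lagging strand genes, 4 had an interval below 0 (PCNA, FEN1, LIG1 and RFC2), 1 above (RFC1), and the other 3 held 0. PCNA, the sliding clamp, had 3424 counts in normoxia and 3270 in hypoxia, a log2 ratio of -0.16 (-0.23 to -0.09), and FPKM of 138.7 and 123.4. FEN1, the flap nuclease, had 1744 and 1652 counts (-0.17, -0.27 to -0.07). LIG1, the ligase that seals the fragments, had 895 and 845 counts and the lowest ratio of the group (-0.18, -0.31 to -0.04), with FPKM of 16.2 and 14.3. PCNA and FEN1 are short genes, at 1399 and 2016 bases. With the length trend removed, PCNA was at -0.10 (from -0.16) and FEN1 at -0.12 (from -0.17). LIG1, at 3125 bases, was then at -0.16 (from -0.18). PCNA has 4 named pseudogenes in RefSeq and FEN1 has 1, so reads shared with copies are uncertain there.

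In the clamp loader, RFC1 had 891 counts in normoxia and 1052 in hypoxia, a log2 ratio of 0.15 (0.02 to 0.28) and FPKM of 10.4 and 11.4. It alone among the 50 had an interval wholly above 0 in the TMM-scaled counts, which at the 99% level held 0. RFC2 was at -0.15 (-0.25 to -0.05), RFC3 at -0.12 (-0.40 to 0.15), RFC4 at -0.08 (-0.22 to 0.06) and RFC5 at -0.05 (-0.22 to 0.12). With the length trend removed, RFC2 was at -0.09 with an interval that held 0, RFC4 at -0.02 and RFC5 at 0.00039.

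Of the single-strand binding protein RPA, RPA2 had 768 and 698 counts (-0.23, -0.38 to -0.08) and FPKM of 23.4 and 19.8. RPA1, the large subunit, had 3630 and 3997 counts (0.05, -0.02 to 0.11) and FPKM of 60.2 and 61.7, and RPA3 was at 0.0072 (-0.10 to 0.12). RPA2 has 3 named pseudogenes in RefSeq. The summed log2 ratio of the 3 subunits was 0.0029 (-0.05 to 0.06).

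In nucleotide supply, RRM2 alone had an interval below 0, and those of the other 3 genes held 0. RRM2, the subunit of ribonucleotide reductase that carries the iron and tyrosyl radical centre, had 4422 counts in normoxia and 4346 in hypoxia, a log2 ratio of -0.12 (-0.18 to -0.06), and FPKM of 73.1 and 66.9. RRM1, the large subunit, had 2236 and 2409 counts (0.015, -0.07 to 0.10) and FPKM of 35.9 and 36.0. TYMS, which makes thymidylate, had 2052 and 2079 counts (-0.07, -0.16 to 0.01) and FPKM of 67.6 and 63.8, and TK1, the salvage kinase, was at -0.07 (-0.16 to 0.02). With the length trend removed, TYMS and TK1 were both at about -0.02 and RRM2 at -0.12. TYMS overlaps ENOSF1 in the annotation and has 2 named pseudogenes. RRM2 has 3, so reads shared with copies are uncertain for both genes.

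At the chromatin of the fork, UHRF1, which reads hemimethylated DNA for maintenance methylation, had 3093 and 3026 counts (-0.12, -0.20 to -0.05) and FPKM of 37.3 and 34.0. CHAF1A, the large subunit of the histone chaperone CAF-1, had 1408 and 1298 counts (-0.21, -0.32 to -0.10) and FPKM of 18.5 and 15.9. CHAF1B, another subunit, had 340 and 354 counts (-0.03, -0.25 to 0.18) and FPKM of 3.21 and 3.11. The span of UHRF1 overlaps ARRDC5 and that of CHAF1A overlaps UBXN6.

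Partners within a complex were set against each other as a ratio of ratios, which needs no scaling between libraries. The 9 pairs were chosen after the values were seen, so they are a description. The difference in log2 ratio was -0.34 (-0.52 to -0.17) for CDC45 against the 4 GINS genes and -0.31 (-0.46 to -0.15) for CDC45 against the MCM ring. It was -0.26 (-0.48 to -0.04) for CDT1 against GMNN and -0.18 (-0.33 to -0.03) for CDC6 against the ORC genes. It was -0.26 (-0.39 to -0.13) for POLD1 against POLD2 and -0.28 (-0.44 to -0.11) for RPA2 against RPA1.

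The remaining pairs were smaller or ran the other way. The difference was -0.13 (-0.24 to -0.03) for RRM2 against RRM1 and 0.26 (0.11 to 0.41) for RFC1 against RFC2 to RFC5. For CHAF1A against CHAF1B it was -0.18 (-0.42 to 0.07), an interval that held 0.

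**Figure D3:**
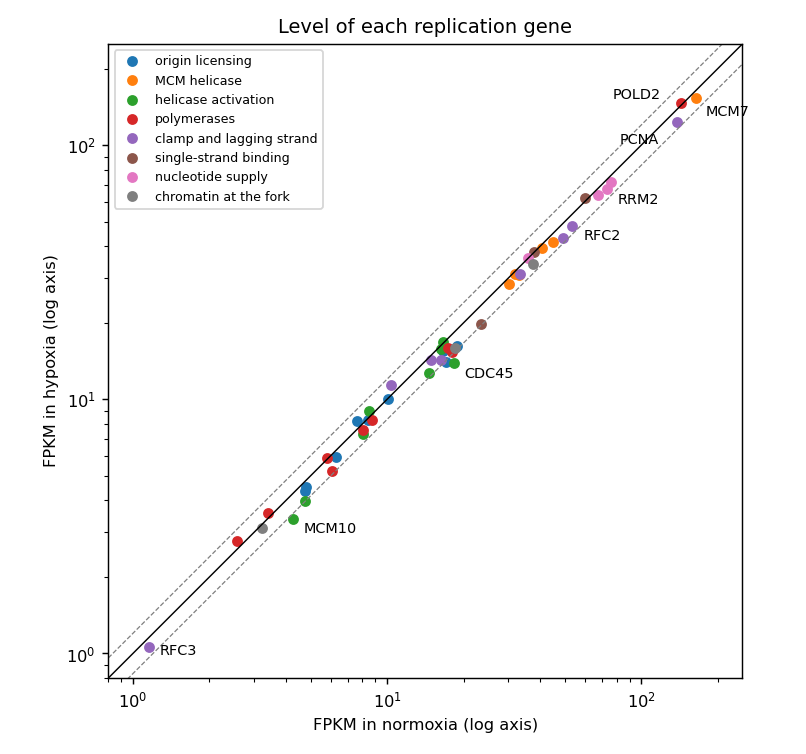
FPKM of each replication gene in normoxia (horizontal) and hypoxia (vertical), both on log axes, coloured by role, with a solid line of equality and dashed lines at 1.2-fold. MCM7, POLD2 and PCNA are the most abundant and RFC3 the least, and CDC45, MCM10, CDT1 and CDC7 lie on or beyond the lower dashed line in this unit, which is scaled to library totals.

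Levels spanned a wide range at baseline. In normoxia the members lay at a median of percentile 69.2 of the FPKM of genes that passed the filter, and 38 of the 50 were at or above the middle. MCM7 was at percentile 97.2 with an FPKM of 164.9, and POLD2 and PCNA had 143.9 and 138.7. RFC3 had the lowest, 1.16, and its deposited FPKM uses a gene length of 11245 bases against 1365 to 4873 for the other RFC genes. Within polymerase delta the level of POLD2 was 24.9 times that of POLD3 (5.78), and RRM2 was 2.04 times RRM1 (35.9) in normoxia and 1.86 times in hypoxia.

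Gene length went with the ratio across all genes and in part across the members. The fifth of genes with the shortest lengths (303 to 2187 bases) had a median log2 ratio of -0.05 and the fifth with the longest (6978 bases or more) of 0.05. The members had a median length of 3483 bases, against 4007 for all genes that passed. Among the members the 25 shorter genes had a median of -0.12 and the 25 longer of -0.05, and over the 50 genes, which share these 2 libraries, Pearson's r of the ratio with log2 length was 0.26 and Spearman's rho was 0.29. With the running median over length subtracted, the members' median was -0.08 and 38 of 50 were below 0. The lean of the group was thus about as large without the length trend.

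**Figure D4:**
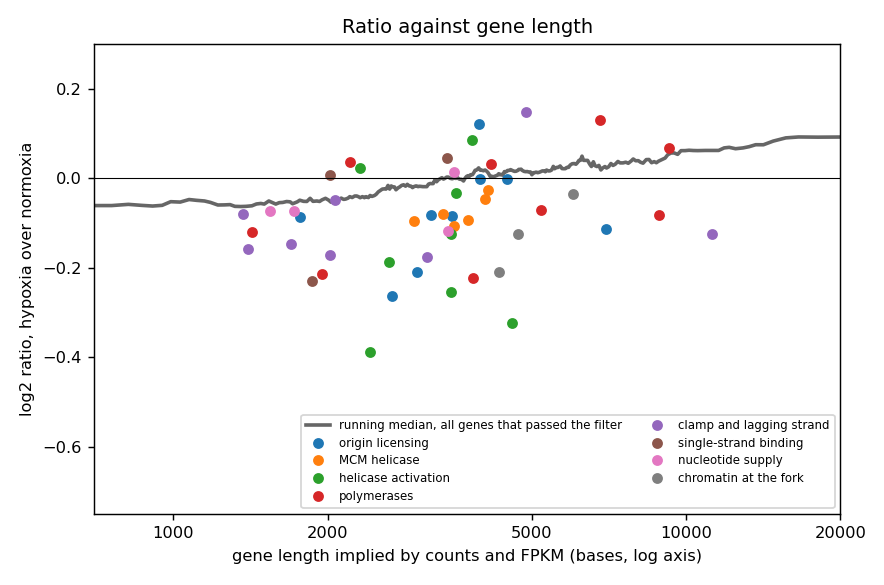
Log2 ratio of each replication gene against the gene length implied by counts and FPKM (log axis), with the running median of all genes that passed the filter as a grey line. The grey line climbs with length, and most members lie below it at their own length.

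By median, lists of other genes of the pathway lay closer to 0, though by summed counts not all of them did. Of 27 other fork and origin factors that passed the filter, 13 were below 0, with a median of 0.01, 1 called lower (3.70%, DSCC1, of an alternative clamp loader, at -0.36, -0.66 to -0.06) and 0 higher. RNASEH2B was highest at 0.26 (-0.07 to 0.58). Of 12 other nucleotide supply genes, 6 were below 0, with a median of 0.0059. SAMHD1, which degrades deoxynucleotides, was called higher at 0.31 (0.16 to 0.46), and NME1 was called lower at -0.33 (-0.49 to -0.17). NME1 and NME2 are neighbours of similar sequence. Reads shared between them were not measured, so the NME1 value is uncertain. RRM2B, the alternative small subunit of the reductase, was at 0.07 (-0.14 to 0.29).

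Among 24 regulators of entry into S phase, 5 were called lower (20.8%, against 4.60% of all genes) and 0 higher (against 4.86%), with a median of -0.01. Their summed log2 ratio was -0.09 (-0.11 to -0.06), beside -0.08 for the 50 members. CCND1, at -0.27 (-0.32 to -0.22), weighs heavily in that sum. It had 7178 of the list's 28678 counts in normoxia and 6356 of 28796 in hypoxia. E2F1, an activator of the replication genes, had 1084 counts in normoxia and 831 in hypoxia (-0.48, -0.61 to -0.34), and E2F2 had 153 and 108 (-0.60, -0.96 to -0.23), the lowest of that list. The other 3 called lower were RBL1, CCND1 and CDC25A. Among those with 100 or more counts in each library, E2F3 was highest at 0.22 (0.04 to 0.39), and cyclin E1 (CCNE1) was at -0.16 (-0.38 to 0.07). Of 9 S phase checkpoint genes, 6 were below 0 and RAD9A was called lower (-0.30, -0.38 to -0.22), with ATR highest at 0.08 (-0.08 to 0.23). The median of these 9 was -0.05, or -0.07 with the length trend removed. Their summed log2 ratio was -0.12 (-0.17 to -0.07). RAD9A weighs heavily in that sum, with 2752 of 7793 counts in normoxia and 2390 of 7648 in hypoxia. By median this list lay on the same side of 0 as the members.

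Mitotic genes are a comparison within the cell cycle. Of 25, 13 were below 0, with a median of -0.0076 (0.02 with the length trend removed), 4 intervals wholly below 0 and 7 wholly above. Those intervals were 16% and 28% of the list, against 14.0% and 15.0% of all genes. CCNB1 was highest at 0.18 (0.13 to 0.23), CDK1 lowest at -0.16 (-0.27 to -0.06), and the proliferation marker MKI67 was at 0.11 (0.06 to 0.15). Replication genes, at a median of -0.08 with 18 intervals below 0 and 1 above, lay lower than this list in these libraries, a difference that 1 library per condition cannot test. Against the 16 HIF targets, with a median of 0.57, the size of the shift was small.

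**Figure D5:**
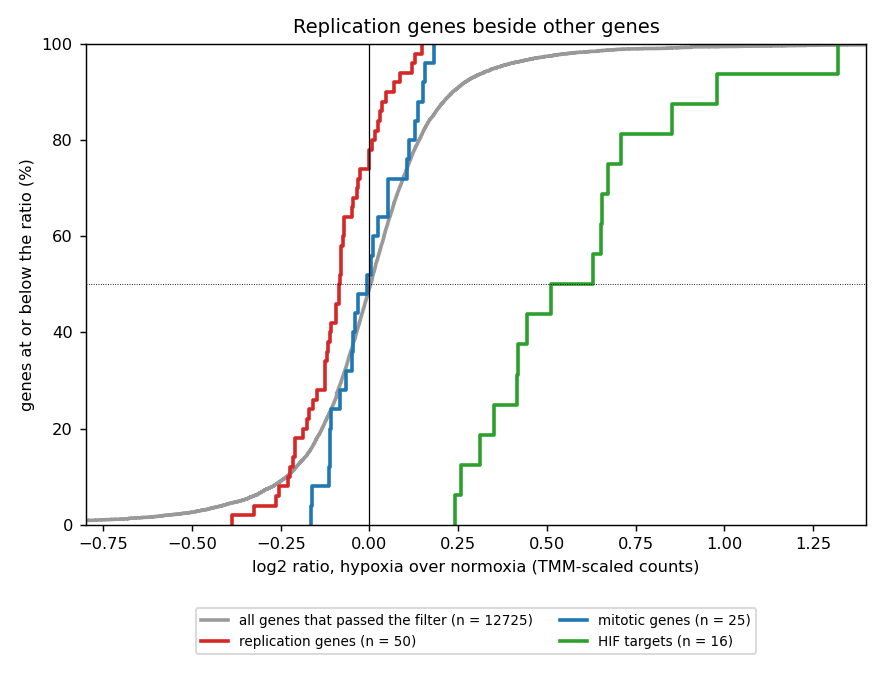
Cumulative share of genes, in percent, at or below each log2 ratio of hypoxia over normoxia, for all genes that passed the filter, replication genes, mitotic genes and HIF targets. The replication curve lies left of the others around the middle (median -0.08), and the HIF targets lie far to the right (median 0.57).

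MCM7 is also a host gene: an intron is known to hold the miR-106b, miR-93 and miR-25 cluster, and RefSeq places 6 mature miRNAs within its span, of which 3 were measured in the miRNA-seq libraries. Their sequences are printed with the seed, bases 2 to 8, in capitals, and the 3 seeds differ.
miR-25-3p (chr7:100093571-100093592, minus strand): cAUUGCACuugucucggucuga
miR-25-5p (chr7:100093610-100093630, minus strand): aGGCGGAGacuugggcaauug
miR-106b-3p (chr7:100094002-100094023, minus strand): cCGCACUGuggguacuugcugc

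miR-25-3p had 957 of 32116 miRNA reads in normoxia (2.98%, 2.80 to 3.17) and 11 of 6576 in hypoxia (0.167%, 0.0835 to 0.299), a TMM-scaled log2 ratio of -4.57 (-5.57 to -3.72). miR-106b-3p had 308 and 39 reads, or 0.959% and 0.593%, a log2 ratio of -1.10 (-1.62 to -0.62). miR-25-5p had 0 reads in normoxia, which allows a share of up to 0.00934%, and 20 in hypoxia (0.304%, 0.186 to 0.469), at least 24.5-fold higher against a floor of 3 counts per library. That bound leaves out the counting error of the 20 reads, with which the log2 ratio was at least 4.18. The 2 strands of miR-25 come from the same hairpin and differed in direction.

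The host mRNA, at -0.09 (-0.14 to -0.05), showed no change of the size seen in miR-25-3p. The miRNA ratios depend on the scaling, since miRNA reads were 0.361% in normoxia and 0.0601% in hypoxia of the totals that the authors' TPM imply. Scaled to those totals, miR-25-3p was at -6.74 and miR-106b-3p at -3.28. The bound for miR-25-5p, against the same floor, was then 5.42-fold. It too leaves out the counting error of the 20 reads, with which the log2 ratio was at least 2.00. The hypoxia library read 76 of the 141 miRNAs and the normoxia library 116, so these values rest on few reads.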

How the data were processed

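RNA-seq and miRNA-seq were each run on 1 normoxia and 1 hypoxia library. The authors deposited read counts per gene and per mature miRNA, FPKM per gene, and TPM per miRNA. Tools named in the submitters' processing notes were HISAT2, Bowtie, HTSeq, Cufflinks and Trimmomatic, with the build GRCh38. For their versions, the annotation and the strand setting, nothing was given in the sources used here. Deposited FPKM equalled counts over the table total and 1 length per gene within 0.1% for 100% of 14542 genes read in both libraries. Deposited TPM equalled counts times 1 constant per library, implying totals of 8889769 and 10936385 reads.

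Counts were scaled by TMM (edgeR 4.0.16, R 4.3.3). Ratios with exact conditional 95% counting intervals were computed in Python 3.11.15 (scipy 1.17.1). 1 read was a scaled CPM of 0.0565 in normoxia and 0.0530 in hypoxia. Genes that reached a CPM of 1 in either library were kept. A call needed 1.2-fold and an interval excluding a ratio of 1. No p-value was computed. The procedure was tested on simulated data. Members and lists were chosen with earlier results of these data known. All members could be named, in full those at the extremes of a role, with the most counts or called, and key genes. Of other lists the extremes with 100 or more counts in both libraries and a few set genes were named. Gene spans and promoters came from RefSeq (GRCh38.p14), where all 50 members matched a gene span and 44 had a promoter window. Alternatives were scaling by total counts, by the upper quartile or by DESeq2 1.42.0 size factors, FPKM with a pseudocount of 1 or 0.1, other filters, folds and interval levels, and removal of the length trend by a running median over 501 genes.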

Additional observations from a re-analysis of the deposited data

How the results depend on the processing

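Under DESeq2 size factors, total counts, upper quartile scaling, FPKM with either pseudocount and removal of the length trend, the log2 ratio of each of the 50 genes lay within its main counting interval. The median of the 50 ran from -0.09 (total counts) to -0.08 (length trend removed), and 38 to 40 genes were below 0. The number called lower (3) was 2 with DESeq2 size factors, with the length trend removed and on FPKM with a pseudocount of 1, where CDT1 was not called, and 4 with total counts, where CDC7 was added. Among all genes the share called lower was 4.60% in the main setting, 4.53% with DESeq2 size factors and 4.98% with total counts. It was 4.54% with the length trend removed and 3.28% on FPKM with a pseudocount of 1. At 1.5-fold and at 2-fold 0 members were called lower, against 1.12% and 0.440% of all genes. No member was called higher under any setting run, although with the length trend removed 2 intervals lay wholly above 0 (RFC1 and POLD2), that of RFC2 held 0 and that of POLE lay below 0. With a 99% interval, 14 intervals lay wholly below 0 and 0 above, against 8.61% and 9.33% of all genes. Without the 11 members that overlap another coding gene, a setting chosen after seeing the data, the median was -0.08, 30 of 39 were below 0 and 3 were called lower. Scaled to the totals that the TPM imply, the log2 ratio was -6.74 for miR-25-3p and -3.28 for miR-106b-3p. For miR-25-5p, with 0 reads in normoxia, it was 2.44 against a floor of 3 counts, and at least 2.00 with counting error. No paired analysis was possible because each condition has 1 library. Depth limits the members with few counts: at 209 and 192 counts the interval of POLE2 ran from -0.51 to 0.07.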

Other observations

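Histone chaperones outside CAF-1 lay on both sides of 0. ASF1B, which hands new histones to CAF-1, had 1507 counts in normoxia and 1414 in hypoxia, a log2 ratio of -0.18 (-0.29 to -0.08), and ASF1A was at -0.16 (-0.37 to 0.06). NASP was at -0.03 (-0.11 to 0.06). The chaperone genes SSRP1 and SUPT16H, listed with the fork factors, were at 0.05 (-0.0093 to 0.10) and 0.01 (-0.05 to 0.07). Of chaperones known to act outside replication, HIRA was at 0.11 (0.0035 to 0.22), with its partners UBN1 at 0.09 (-0.0089 to 0.19) and CABIN1 at 0.19 (0.11 to 0.27). DAXX was at 0.17 (0.05 to 0.28) and its partner ATRX at 0.20 (0.07 to 0.33). These genes were grouped after their values were seen, none reached 1.2-fold, and the grouping was not tested. With the length trend removed, HIRA was at 0.09, UBN1 at 0.05, CABIN1 at 0.10, DAXX at 0.19 and ATRX at 0.14, and the interval of HIRA then held 0. Over all 14 other chromatin assembly genes the median was -0.04, with TONSL lowest at -0.20 (-0.37 to -0.02) and DNMT1, the maintenance methyltransferase, at -0.08 (-0.13 to -0.03).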
